A study of Mus musculus with 9 samples.

Results

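The group described here is a set of 35 mouse genes of canonical Wnt signalling: the TCF/LEF transcription factors with Lef1 at their head, beta-catenin and its co-activator, the complex that degrades beta-catenin, the Dishevelled and Groucho proteins, the inhibitors that the pathway induces against itself, and genes widely used as its targets. All 35 were found by symbol among the 54532 genes of the deposited count table, and 34 of them passed the low-count filter that kept 16836 genes. The remaining member, Dkk1, was too low to test and is given by its counts. The members were taken by name from a list drawn up with earlier results of these data known.

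The RNA came from prostates of male mice of 3 genotypes at Srd5a2, which encodes the steroid reductase that turns testosterone into dihydrotestosterone. The groups are Srd5a2-/- null animals (KO), Srd5a2+/- heterozygotes (Het) and wild-type animals (WT), with 3 libraries each. The line was bred through C57BL6 mice, and no treatment is named for any group. The series title puts SRD5A2 of the prostate stroma beside WNT5A, LEF1 and IGF1 in prostate growth, so the question for these genes is whether their RNA levels differ by Srd5a2 genotype. The labels do not give the age of the mice, the lobes taken or the deleted part of the gene. They also leave unsaid whether each library is a mouse of its own, so the spread behind the p-values is that of these libraries and may be technical.

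When no Wnt ligand is bound, a complex built on the Axin and APC scaffolds lets the kinases CK1 and GSK3 phosphorylate beta-catenin, which is then destroyed. Ligand bound to Frizzled and LRP receptors acts through Dishevelled to stop that complex, and beta-catenin enters the nucleus, where it displaces Groucho (TLE) co-repressors from TCF/LEF factors. Among the genes then transcribed are inhibitors of the pathway itself, Axin2 best known among them. In the developing prostate Wnt signalling takes part in bud outgrowth and in the exchange between stroma and epithelium.

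Promoter windows from RefSeq (build GRCm38.p6; 250 bases before to 50 after a transcript start) were found for 24 members, in 33 windows. They were searched on both strands for CTTTGAA and CTTTGAT, 2 common forms of the TCF/LEF recognition sequence. A match was present in 3 member windows, 1 each of Sp5, Tnfrsf19 and Dkk1, while 8.65% of all 32851 windows in the table held one. Tnfrsf19 had a further window, at a more upstream start (chr14:61046806-61047105, minus strand), without a match. A match is a description of these letters and not a site of binding, and a window without a match says nothing of the factor. The windows of Lef1 (chr3:131110047-131110346, plus strand, the most upstream of its windows) and Axin2 (chr11:108920099-108920398, plus strand) are shown because the results below start from these genes. Those of Sp5 (chr2:70474673-70474972, plus strand) and Tnfrsf19 (chr14:61037938-61038237, minus strand) are shown because they held a match, which stands in capitals, starting 104 bases before the transcript start in Sp5 and 202 bases before it in Tnfrsf19. Each runs 5′ to 3′ on the gene's strand.
Lef1: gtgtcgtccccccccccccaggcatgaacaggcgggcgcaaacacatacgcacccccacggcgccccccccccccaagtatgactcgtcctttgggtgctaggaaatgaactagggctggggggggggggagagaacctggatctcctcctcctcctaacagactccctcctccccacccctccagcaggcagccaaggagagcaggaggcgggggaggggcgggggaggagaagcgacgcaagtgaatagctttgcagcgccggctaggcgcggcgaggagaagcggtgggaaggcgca
Axin2: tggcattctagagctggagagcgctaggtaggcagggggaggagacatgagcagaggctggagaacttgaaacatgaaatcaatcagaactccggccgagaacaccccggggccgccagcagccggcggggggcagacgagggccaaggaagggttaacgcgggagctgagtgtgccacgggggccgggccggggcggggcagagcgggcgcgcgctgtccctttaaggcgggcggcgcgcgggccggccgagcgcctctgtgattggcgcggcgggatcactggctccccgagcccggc
Sp5: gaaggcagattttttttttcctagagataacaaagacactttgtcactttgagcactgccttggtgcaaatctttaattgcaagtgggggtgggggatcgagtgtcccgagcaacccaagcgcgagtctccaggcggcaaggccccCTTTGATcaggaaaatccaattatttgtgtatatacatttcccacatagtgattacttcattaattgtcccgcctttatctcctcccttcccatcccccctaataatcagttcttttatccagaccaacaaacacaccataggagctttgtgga
Tnfrsf19: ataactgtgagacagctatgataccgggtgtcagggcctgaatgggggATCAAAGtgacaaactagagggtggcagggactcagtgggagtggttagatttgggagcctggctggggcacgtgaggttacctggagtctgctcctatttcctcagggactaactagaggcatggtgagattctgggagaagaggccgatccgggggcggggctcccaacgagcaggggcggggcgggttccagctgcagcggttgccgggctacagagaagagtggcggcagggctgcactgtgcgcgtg

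Levels are given as CPM (a gene's count as a rate of its library total, scaled by the TMM method) when 1 gene is compared across libraries, and as the authors' FPKM (the same kind of rate per kilobase of gene) when genes are compared with each other. Values of a genotype are in the order of libraries 1, 2 and 3. Library totals ran from 16233392 to 24017791 reads. Srd5a2 itself stood at 0.934, 0.512 and 1.15 CPM in KO, at 3.68, 5.19 and 2.37 CPM in Het and at 2.30, 5.50 and 8.81 CPM in WT, so every KO library was below every library of the other genotypes, with 17, 9 and 22 reads left in KO. Prostate identity was present in all 9 libraries, with the androgen-regulated secretory gene Pbsn at 2510 to 13100 CPM and the prostate homeobox gene Hoxb13 at 45.1 to 529 CPM. Libraries within a genotype stood apart from each other all the same. Sbp, the spermine-binding secretory protein of the prostate, was at 34600, 34400 and 56200 CPM in KO, at 144000, 7.26 and 114000 CPM in Het, and at 0.994, 55600 and 16.0 CPM in WT. Het 2, WT 1 and WT 3 therefore nearly lacked Sbp, and results are given without them where that matters. Markers of the seminal vesicle, a gland attached to the prostate (7 of 7 listed genes tested, none at 0 in a genotype), summed to 97800, 95000 and 191000 CPM in KO, 6590, 359000 and 113000 CPM in Het, and 72200, 31100 and 220000 CPM in WT. These sums were carried by Svs2 and Svs5, which made up 68.6% to 91.6% of them. The genes of the list did not rank the libraries alike. Svs2 and Svs5 were highest in Het 2, at 231000 and 91500 CPM, whereas Svs1, Svs3a and Svs6 were at 12.3, 14.5 and 77.1 CPM there and at 1220 CPM or more in every KO library. All 7 were lowest in Het 1. In whole tissue, fewer cells of a type and less RNA per cell cannot be told apart.

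By edgeR's quasi-likelihood test none of the 34 tested members had an adjusted p under 0.05 in any of the 3 comparisons, and the same was true of all 16836 genes (0% called in each). The lowest adjusted p over all genes was 1 for KO against WT, 0.38 for Het against WT and 0.311 for KO against Het. Limma voom also called 0 genes in each. DESeq2 called 15, 206 and 179 genes in that order of comparisons (0.0846%, 1.13% and 0.907% of those it tested), and 1 of them was a member, Tle1 in Het against WT. The 3 comparisons share libraries and are therefore not independent of each other.

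Among the TCF/LEF factors, Lef1, which binds DNA through an HMG box and is an activator when joined by beta-catenin, was the least abundant. Its counts were 108, 55 and 54 in KO, 28, 238 and 62 in Het and 51, 77 and 135 in WT, corresponding to 5.93, 3.13 and 2.82 CPM in KO, 1.51, 10.9 and 3.42 CPM in Het and 2.67, 3.42 and 7.00 CPM in WT. The 3 genotypes overlapped fully, and the highest and the lowest library were both Het. Lef1 averaged 3.96 ± 1.71 CPM in KO, 5.29 ± 4.98 in Het and 4.36 ± 2.31 in WT (SD, n = 3 each). The log2 fold change of Lef1 was -0.14 in KO against WT (standard error 0.70, 95% interval -1.70 to 1.43, edgeR adjusted p = 1), 0.28 in Het against WT (0.70, -1.28 to 1.84, adjusted p = 0.932) and -0.42 in KO against Het (0.70, -1.98 to 1.14, adjusted p = 0.984). Differences of more than 2-fold in either direction lie inside each of these intervals, so a difference of that size was not detectable at this depth and spread. Without Het 2 the Lef1 value was -0.84 in Het against WT and 0.68 in KO against Het, and both thus changed sign. With a seminal vesicle score in the fit (the mean log2 CPM of its 7 markers, chosen after the values had been seen) the Lef1 value was -0.96 in KO against WT (edgeR adjusted p = 0.791), 0.93 in Het against WT (adjusted p = 0.393) and -1.89 in KO against Het (adjusted p = 0.2). This score was 12.85, 12.87 and 13.8 in KO and 4.97, 10.89 and 8.53 in Het, so these groups did not overlap on it. In KO against Het the score and the genotype can therefore not be told apart. With genotype alone in the fit, the Lef1 value in KO against WT was 0.01 without KO 2, 0.04 without KO 3 and 0.37 without WT 3. T and NK cells also use Lef1 and Tcf7, and their 14 listed markers (8 tested) summed to 7.19 to 11.8 CPM in KO, 2.70 to 5.65 in Het and 5.07 to 9.59 in WT. Among them, Cd8a had no reads in any Het or WT library. Het 2, the library highest in Lef1, summed to 5.65 CPM, and the part of these cells in the level of Lef1 was not tested.

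Per length, Tcf7 (TCF1), the factor nearest to Lef1 in use as an activator, led the family with a median of 7.33 FPKM over the 9 libraries (range 3.16 to 18). Tcf7l1 (TCF3), best known as a repressor, followed at a median of 5.31 FPKM (3.10 to 8.41), then Tcf7l2 (TCF4), the main factor of the intestinal epithelium, at 3.01 FPKM (1.93 to 3.81), and Lef1 at 0.378 FPKM (0.173 to 1.24). The ranges of neighbouring factors overlapped except for those of Tcf7l2 and Lef1. Lef1 made up 2.70% ± 1.15 of the summed FPKM of the 4 factors in KO, 2.66% ± 1.70 in Het and 2.83% ± 1.22 in WT (SD, n = 3 each), and its highest share was 4.50%, in Het 2. It was the lowest of the 4 in all 9 libraries. The order of the others depended on the library: Tcf7 held 65.3% in Het 2 and 21.4% in Het 1, where Tcf7l1 held 57.0%.

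**Figure D1:**
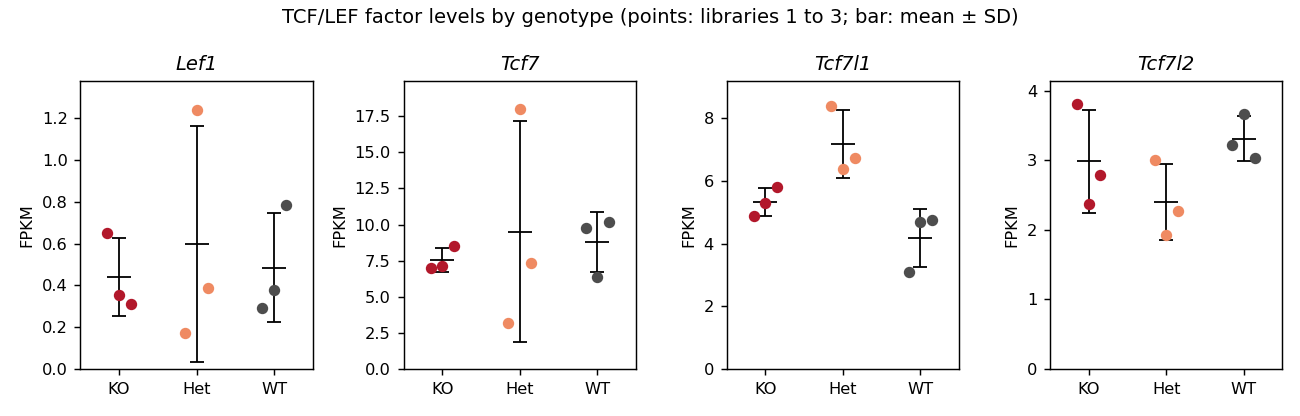
FPKM (linear axis from 0) of Lef1, Tcf7, Tcf7l1 and Tcf7l2 by genotype, each point a library and each bar the mean ± SD of 3 libraries. Lef1 stays at or below 1.24 FPKM while Tcf7 reaches 18 FPKM in Het 2, and the wide Het bars of Lef1 and Tcf7 come from that library.

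Tcf7 was at 18.9, 19.0 and 22.9 CPM in KO, 8.27, 47.4 and 19.5 CPM in Het and 26.4, 17.2 and 27.2 CPM in WT. As with Lef1, the highest and the lowest value were Het 2 and Het 1. Its log2 fold change was -0.22 in KO against WT (standard error 0.51, edgeR adjusted p = 1), 0.09 in Het against WT (0.51, adjusted p = 0.972; -0.78 without Het 2, -0.05 without WT 2) and -0.31 in KO against Het (0.51, adjusted p = 0.984; 0.55 without Het 2). Tcf7l1 was at 19.9, 21.1 and 23.3 CPM in KO, 32.9, 25.1 and 26.8 CPM in Het and 12.6, 18.9 and 19.0 CPM in WT. The 3 genotypes did not overlap, with Het highest, KO between and WT lowest. The log2 fold change of Tcf7l1 was 0.35 in KO against WT (0.21, edgeR adjusted p = 1), 0.75 in Het against WT (0.21, adjusted p = 0.417) and -0.40 in KO against Het (0.21, adjusted p = 0.882). Tcf7l2 was at 34.4, 21.0 and 25.0 CPM in KO, 26.3, 16.9 and 20.1 CPM in Het and 29.0, 32.9 and 27.0 CPM in WT, so each Het library lay below each WT library while KO overlapped both. Its log2 fold change was -0.15 in KO against WT (0.23, edgeR adjusted p = 1), -0.49 in Het against WT (0.24, adjusted p = 0.572) and 0.35 in KO against Het (0.24, adjusted p = 0.946).

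Beta-catenin itself, Ctnnb1, was among the most abundant members, with a median of 55.8 FPKM. It was at 252, 294 and 337 CPM in KO, 327, 351 and 332 CPM in Het and 268, 259 and 249 CPM in WT. All Het libraries lay above all WT libraries, while KO overlapped both groups. The log2 fold change of Ctnnb1 was 0.19 in KO against WT (standard error 0.14, edgeR adjusted p = 1), 0.38 in Het against WT (0.14, 95% interval 0.07 to 0.69, adjusted p = 0.48) and -0.20 in KO against Het (0.14, adjusted p = 0.964). The sum of the urothelial markers, 5 of 5 tested and none at 0 in a genotype, also lay higher in Het, at 333 to 395 CPM beside 124 to 300 CPM in WT. Of these markers 4 had a positive fold change in Het against WT and 1, Upk1b, a negative one. Upk1b was at 104, 123 and 90.8 CPM in Het and 195, 140 and 105 CPM in WT. Of the 5 markers, 0 lay wholly above WT, and the part of these cells in the level of Ctnnb1 was not tested. Bcl9, the adaptor that ties beta-catenin to the transcription machinery through Pygopus, ranged from 20.8 to 36.5 CPM with all genotypes overlapping.

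The genes of the destruction complex varied little. Csnk1a1, the CK1 kinase that primes beta-catenin, ranged from 225 to 288 CPM over the 9 libraries, a 1.28-fold range, and Gsk3b, the kinase that follows it, from 54.5 to 79.2 CPM. Axin1, the constitutive scaffold, ranged from 33.0 to 51.2 CPM. For none of these 3 did the genotypes separate. The tumour suppressor Apc was at 44.0, 53.6 and 63.8 CPM in KO, 63.5, 73.5 and 62.4 CPM in Het and 60.3, 47.9 and 43.4 CPM in WT, so Het lay above WT. Its log2 fold change in KO against Het was -0.31 (standard error 0.18, edgeR adjusted p = 0.913).

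Of the Dishevelled genes, whose products relay the signal from Frizzled, Dvl1 was at 113, 104 and 96.9 CPM in KO, 95.7, 70.5 and 47.9 CPM in Het and 104, 114 and 96.3 CPM in WT. Every Het library was below every library of the other genotypes, by a narrow margin in Het 1. The log2 fold change of Dvl1 was -0.56 in Het against WT (standard error 0.22, edgeR adjusted p = 0.497) and 0.55 in KO against Het (0.22, adjusted p = 0.753). The Het against WT value was -0.34 without Het 3, and the KO against Het value 0.33 without Het 3. Dvl3 was at 39.8, 37.1 and 44.6 CPM in KO, 45.8, 72.3 and 53.4 CPM in Het and 53.8, 46.6 and 42.7 CPM in WT. Every KO library of Dvl3 lay below every Het library, with a log2 fold change of -0.50 in KO against Het (0.19, edgeR adjusted p = 0.719). Dvl2 ranged from 18.4 to 26.4 CPM. It overlaps Acadvl on the opposite strand, whose total count was 132% of its own, and since the labels do not state strand use in counting, the reads of these neighbours cannot be told apart.

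The Groucho genes, whose products hold TCF/LEF targets silent, had no common direction. Tle1 was at 103, 105 and 109 CPM in KO, 86.8, 79.9 and 65.0 CPM in Het and 156, 125 and 111 CPM in WT. The 3 genotypes did not overlap, with Het lowest and WT highest, though KO 3 and WT 3 lay close to each other. Tle1 averaged 106 ± 2.84 CPM in KO, 77.2 ± 11.1 CPM in Het and 131 ± 23.2 CPM in WT (SD, n = 3 each). Its log2 fold change was -0.76 in Het against WT (standard error 0.16, 95% interval -1.12 to -0.39, edgeR adjusted p = 0.392), -0.31 in KO against WT (0.16, adjusted p = 1) and 0.45 in KO against Het (0.16, adjusted p = 0.705). In Het against WT the value passed by DESeq2 (-0.73, adjusted p = 0.0372), and by edgeR without Het 1 (-0.86, adjusted p = 0.0478) or when the seminal vesicle score joined the fit (-0.88, adjusted p = 0.034). Endothelial markers, 7 of 7 tested and none at 0, stood apart in the same libraries, summing to 23.0 to 39.4 CPM in Het and 61.6 to 95.7 CPM in WT, and so did prostate luminal markers, 8 of 8 tested and none at 0, summing to 4110 to 9310 CPM in Het and 10600 to 16500 CPM in WT. In Het against WT all 7 endothelial markers had a negative fold change, whereas of the 8 luminal markers 4 had a positive and 4 a negative one. The luminal sum was mostly Pbsn, at 6300, 2510 and 2700 CPM in Het and 13100, 10900 and 8320 CPM in WT. The part of endothelial and luminal cells in the levels of Tle1, Nkd1 and Dvl1 was not tested. Tle3 and Tle4 ranged from 59.6 to 132 CPM and from 16.1 to 62.9 CPM, were highest in Het 1 and overlapped between all genotypes.

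Among the inhibitors that the pathway induces, Axin2, the scaffold most used as its readout, was at 43.3, 45.2 and 52.1 CPM in KO, 25.8, 99.6 and 36.6 CPM in Het and 75.5, 39.9 and 69.0 CPM in WT. KO libraries lay close together inside the range of WT, and the 2 extremes were again Het 1 and Het 2. The log2 fold change of Axin2 was -0.39 in KO against WT (standard error 0.47, edgeR adjusted p = 1), -0.18 in Het against WT (0.46, adjusted p = 0.933; 0.15 without Het 1, 0.03 without Het 3) and -0.21 in KO against Het (0.47, adjusted p = 0.99; 0.58 without Het 2). Nkd1, a Dishevelled-binding antagonist, was at 86.2, 68.6 and 64.5 CPM in KO, 50.9, 72.7 and 49.4 CPM in Het and 152, 89.0 and 92.6 CPM in WT. All KO and all Het libraries lay below all WT libraries, WT 1 being far above the other two. The log2 fold change of Nkd1 was -0.61 in KO against WT (0.24, edgeR adjusted p = 1; -0.31 without WT 1, -0.28 without the 3 libraries low in Sbp) and -0.95 in Het against WT (0.24, edgeR adjusted p = 0.401).

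The other feedback inhibitors and the target gene Sp5 varied within genotypes. Nkd2, the second Naked-cuticle gene, ranged from 0.941 to 6.09 CPM and Notum, the enzyme that removes the lipid from Wnt ligands, from 0.324 to 2.67 CPM with 6 to 58 reads per library. Rnf43 and Znrf3, membrane ligases that remove Frizzled from the cell surface, ranged from 25.3 to 48.4 CPM and from 18.7 to 35.4 CPM, and Znrf3 had a log2 fold change of -0.34 in KO against WT (standard error 0.22, edgeR adjusted p = 1). Kremen1, a receptor for DKK proteins, ranged from 30.0 to 54.6 CPM, with all Het libraries above all WT libraries. Apcdd1, a membrane inhibitor of Wnt binding, ran from 3.19 CPM in Het 1 to 21.1 CPM in Het 2. Sp5, a zinc-finger factor and target whose promoter window held a match, ranged from 4.75 to 36.0 CPM. Dkk1, the secreted blocker of the LRP receptors, had 0, 4 and 9 reads in KO, 0, 19 and 0 in Het and 1, 0 and 0 in WT, where a count of 0 allows up to 3 reads in a library. It was detected in too few libraries to compare genotypes.

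The R-spondin receptors Lgr5 and Lgr6, known as stem cell markers of intestine and skin, were low per length, with medians of 0.929 and 0.115 FPKM. Lgr5 was at 14.3, 18.7 and 9.78 CPM in KO, 11.0, 5.52 and 3.09 CPM in Het and 15.5, 8.83 and 8.97 CPM in WT, and its log2 fold change in KO against Het was 1.12 (standard error 0.47, edgeR adjusted p = 0.761), or 1.73 without Het 1. Fibroblast markers, 9 of 9 tested, summed to 909 to 1130 CPM in KO and 379 to 664 CPM in Het, and endothelial markers to 57.4 to 130 CPM in KO and 23.0 to 39.4 CPM in Het, with none at 0 in a genotype. The part of these cells in the KO against Het values of Lgr5, Dvl1 and Tle1 was not tested. Lgr6 had 25, 14 and 17 reads in KO, 3, 35 and 44 in Het and 5, 5 and 6 in WT. All KO libraries lay above all WT libraries, and the Het libraries ran from below WT to above KO. Lgr6 had a log2 fold change of 1.92 in KO against WT (1.04, edgeR adjusted p = 1) and 2.38 in Het against WT (1.05, adjusted p = 0.544).

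Of the general targets, Cd44, the hyaluronan receptor, was at 22.0, 18.7 and 18 CPM in KO, 11.0, 15.9 and 19.5 CPM in Het and 7.90, 14.0 and 10.8 CPM in WT. All KO libraries lay above all WT libraries and Het overlapped both. For KO against WT its log2 fold change was 0.84 (standard error 0.29, 95% interval 0.20 to 1.48, edgeR adjusted p = 1), and 0.48 without the 3 libraries low in Sbp. Basal epithelial markers, 8 of 8 tested, summed to 540 to 836 CPM in KO and 345 to 577 CPM in WT. Of these 7 had a positive fold change in KO against WT and 1, Krt14, a negative one. Krt14 averaged 36.3 CPM in KO and 46.9 CPM in WT. Nerve and Schwann cell markers, 6 of 6 tested, summed to 87.7 to 119 CPM in KO and 43.0 to 67.3 CPM in WT, and urothelial markers to 334 to 367 CPM in KO and 124 to 300 CPM in WT. Of the 5 urothelial markers 4 had a positive fold change in KO against WT and 1, Upk1b, a negative one. No gene of these lists was at 0 in a genotype, and the part of these cells in the level of Cd44 was not tested. Ccnd1, the cell cycle regulator cyclin D1, was at 135, 216 and 411 CPM in KO, 54.8, 918 and 339 CPM in Het and 249, 108 and 480 CPM in WT. It spanned a 16.7-fold range, the widest of the members with a read in every library, and both of its ends were Het libraries. Oraov1, which overlaps Ccnd1 on the opposite strand, had 7.43% of its count. Myc, the growth-promoting transcription factor, spanned only 34.5 to 51.9 CPM. Tnfrsf19 (Troy), a TNF-receptor family member with a match in 1 of its promoter windows, was at 47.3, 51.5 and 63.4 CPM in KO, 18.9, 133 and 44.0 CPM in Het and 85.2, 37.0 and 88.3 CPM in WT. Bambi, a pseudoreceptor that dampens TGF-beta signalling, ranged from 8.72 to 17.1 CPM and Twist1, a mesenchymal transcription factor, from 0.889 to 2.91 CPM. Ascl2, a transcription factor of intestinal stem cells, had 0 to 24 reads per library, with the 0 in Het 1.

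**Figure D2:**
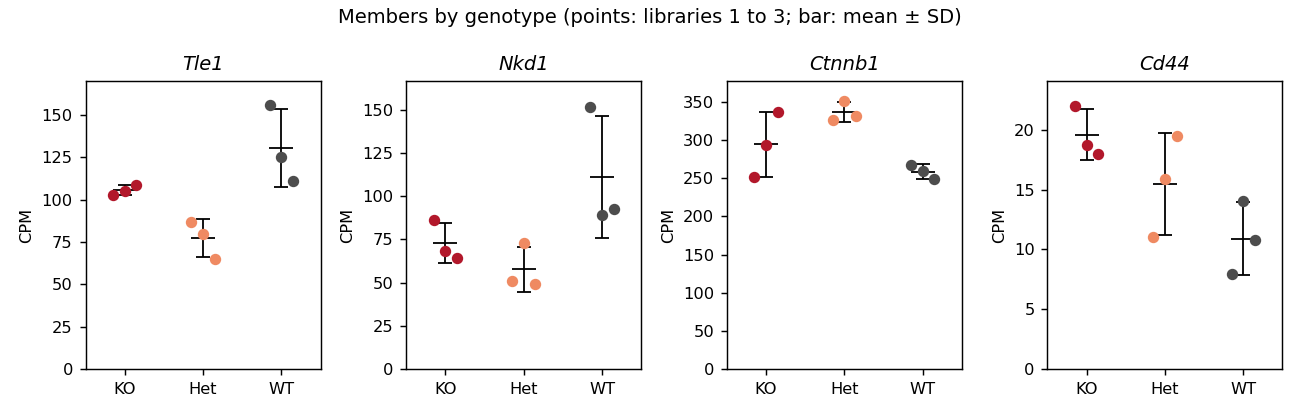
CPM (linear axis from 0) of Tle1, Nkd1, Ctnnb1 and Cd44 by genotype, each point a library and each bar the mean ± SD of 3 libraries. All Het points of Tle1 and Nkd1 lie below all WT points, all Het points of Ctnnb1 lie above all WT points, and all KO points of Cd44 lie above all WT points; none passed edgeR's adjusted threshold.

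Counted over the members, few differed between genotypes before adjustment. Their shares at an unadjusted p under 0.05 lay above those of all genes, on a list chosen with earlier results of these data known. Their shares wholly above or below the other genotype did so in some directions only. In KO against WT, 1 member, Cd44, was higher and 1, Nkd1, lower at an unadjusted p under 0.05 (2.20% and 1.37% of all tested genes), which is 5.88% of the tested members beside 3.57% of all genes. There 3 lay wholly above WT (Tcf7l1, Lgr6 and Cd44), which is 8.82% of the members beside 8.14% of all genes. Wholly below lay 2 (Tle1 and Nkd1), or 5.88% beside 6.04%. In Het against WT, 3 members were higher (Tcf7l1, Ctnnb1 and Lgr6; 3.43% of all genes) and 3 lower (Tle1, Nkd1 and Dvl1; 5.61%) at an unadjusted p under 0.05, which is 17.6% of the tested members beside 9.04% of all genes. There 4 members lay wholly above WT (Tcf7l1, Ctnnb1, Apc and Kremen1), which is 11.8% of the members beside 4.70% of genes. Wholly below lay 4 (Tcf7l2, Dvl1, Tle1 and Nkd1), or 11.8% beside 8.59%. In KO against Het, 3 were higher (Tle1, Dvl1 and Lgr5; 4.42% of genes) and 1 lower (Dvl3; 1.81%) at an unadjusted p under 0.05. This is 11.8% of the members beside 6.22% of all genes. There 2 lay wholly above Het (Dvl1 and Tle1), which is 5.88% of the members beside 7.80% of genes. Wholly below lay 2 (Tcf7l1 and Dvl3), or 5.88% beside 4.12%. The median log2 fold change of the members was -0.01 in KO against WT, 0.12 in Het against WT and -0.18 in KO against Het, beside 0.01, 0.00 and 0.02 over all genes in that order. Without Het 2 the members' median was -0.16 in Het against WT and 0.28 in KO against Het. Of the 12 genes listed as feedback inhibitors and target genes, among them Sp5, Lgr5 and Lgr6, 11 were tested. In KO against WT 6 of these had a positive and 5 a negative fold change.

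**Figure D3:**
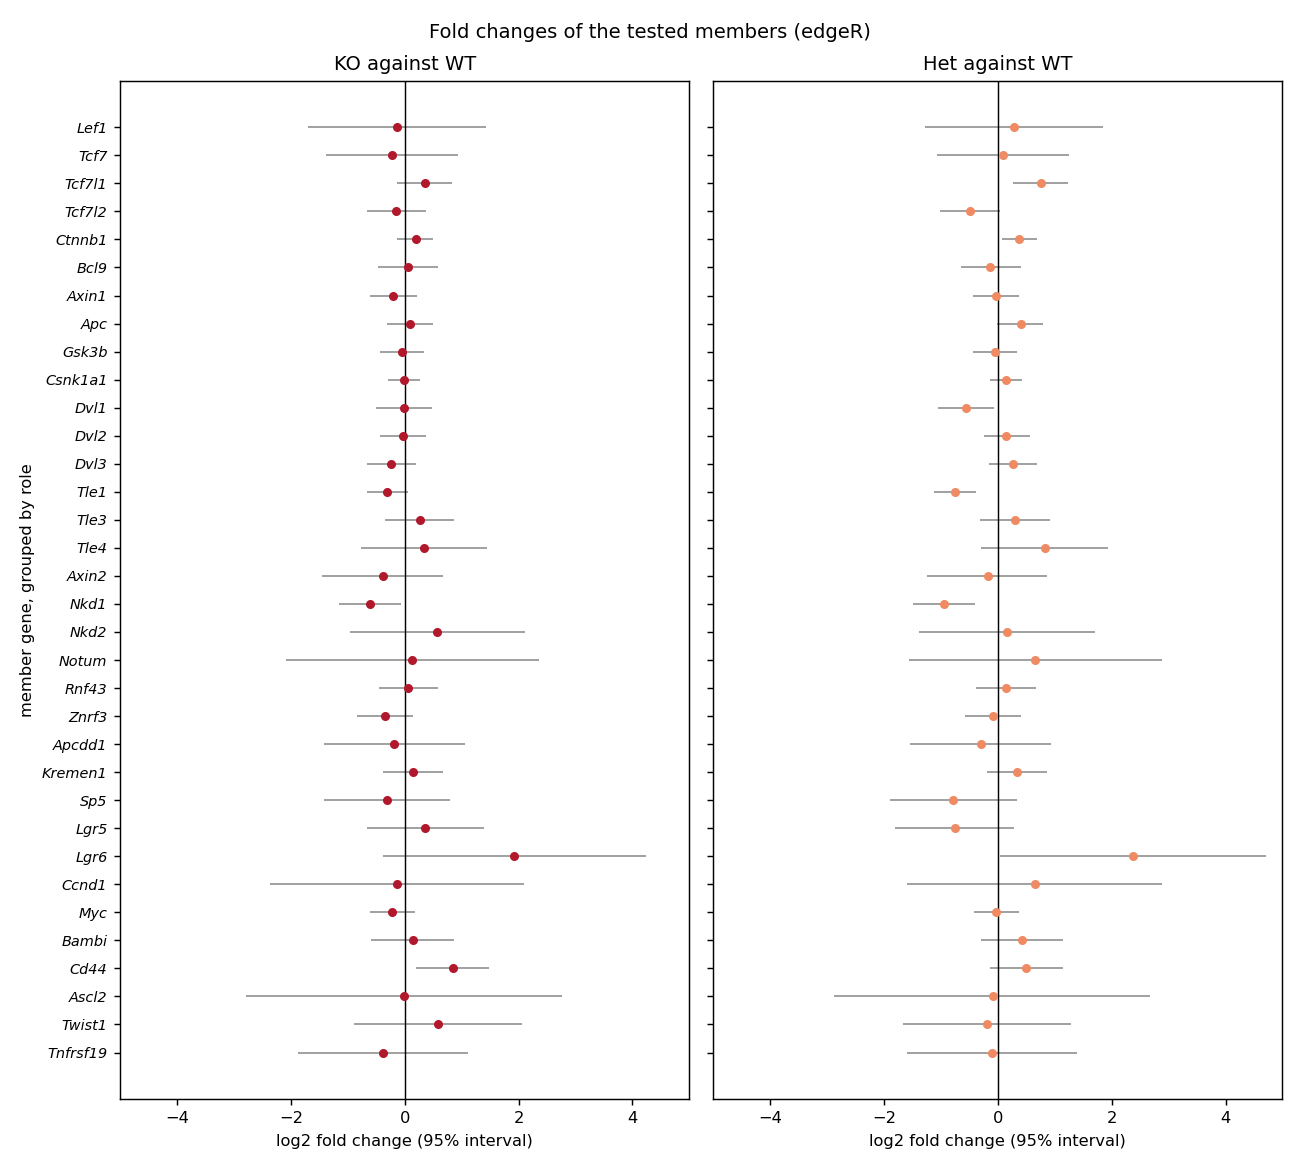
Log2 fold change (linear axis, 0 marked by a line) of each of the 34 tested members in KO against WT (left) and Het against WT (right), with 95% intervals from the edgeR fit, ordered by role. Most intervals cross 0, those of Lef1, Lgr6 and Ccnd1 are among the widest, and those of Cd44 and Nkd1 on the left and of Tle1, Nkd1, Dvl1, Tcf7l1, Ctnnb1 and Lgr6 on the right do not, before adjustment.

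A further 56 genes of the pathway (ligands, receptors, secreted antagonists and modulators) were listed beside the members. Of these, 52 were tested and edgeR and limma voom called none, in any comparison. At an unadjusted edgeR p under 0.05, 5 were higher and 0 lower in KO against WT. In Het against WT the counts were 2 and 2, and in KO against Het 1 and 0. In that order this was 9.62%, 7.69% and 1.92% of the 52, beside 3.57%, 9.04% and 6.22% of all tested genes. In KO against WT the smallest p belonged to Sfrp2, a secreted Wnt antagonist of stromal cells, at 19.4 ± 2.08 CPM in KO and 8.24 ± 4.54 CPM in WT (SD, n = 3 each; log2 fold change 1.24, standard error 0.41, edgeR adjusted p = 1). The related antagonist Sfrp5 had a log2 fold change of 1.31 there and of 1.03 in KO against Het (edgeR adjusted p = 1 and 0.894). Jup, plakoglobin, the close relative of beta-catenin at cell junctions, was at 197 ± 9.22 CPM in KO, 225 ± 17.2 CPM in Het and 162 ± 6.74 CPM in WT (SD, n = 3 each). Its order of genotypes was that of Ctnnb1, with a log2 fold change of 0.28 in KO against WT (0.12, edgeR adjusted p = 1) and 0.47 in Het against WT (0.12, adjusted p = 0.401). The Frizzled receptors differed in sign in Het against WT, Fzd6 with a log2 fold change of 0.99 (0.26, edgeR adjusted p = 0.405) and Fzd7 with -0.66 (0.20, adjusted p = 0.419). In KO against Het, Fzd7 had 0.61 (0.20, edgeR adjusted p = 0.665) and Fzd9 1.67 (0.85, adjusted p = 0.866). DESeq2 called 1 of the 56, in Het against WT, and 0 in the other comparisons.

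The larger pattern was between libraries of the same genotype. Het 2 held the highest level of 15 of the 34 tested members (44.1%), against 18.8% of all tested genes. Het 1 held the lowest level of 9 (26.5%), which was near its share of all genes (22.9%) and so not particular to the members. The members highest in Het 2 included Lef1, Tcf7, Axin2, Notum, Rnf43, Apcdd1, Ccnd1 and Tnfrsf19, and of these all but Rnf43 were lowest in Het 1. Tcf7l1, Gsk3b, Csnk1a1, Tle3 and Tle4 were highest in Het 1. Smooth muscle markers were 7 of 7 tested, with none at 0 in a genotype. They summed to 5780, 4410 and 4170 CPM in KO, 1150, 7390 and 7190 CPM in Het and 3090, 5170 and 6470 CPM in WT. This sum too was highest in Het 2 and lowest in Het 1. Each gene of the list was lowest in Het 1, while Myh11, Actg2 and Myocd were highest in Het 3 and Des in KO 1. Het 1 was also lowest in the sums of basal epithelial (304 CPM), fibroblast (379 CPM), endothelial (23.0 CPM) and skeletal muscle (139 CPM) markers. It was not lowest in those of prostate luminal, urothelial, nerve and Schwann, or T and NK cell markers. The part of smooth muscle and of these other tissues in the members' levels was not tested.

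**Figure D4:**
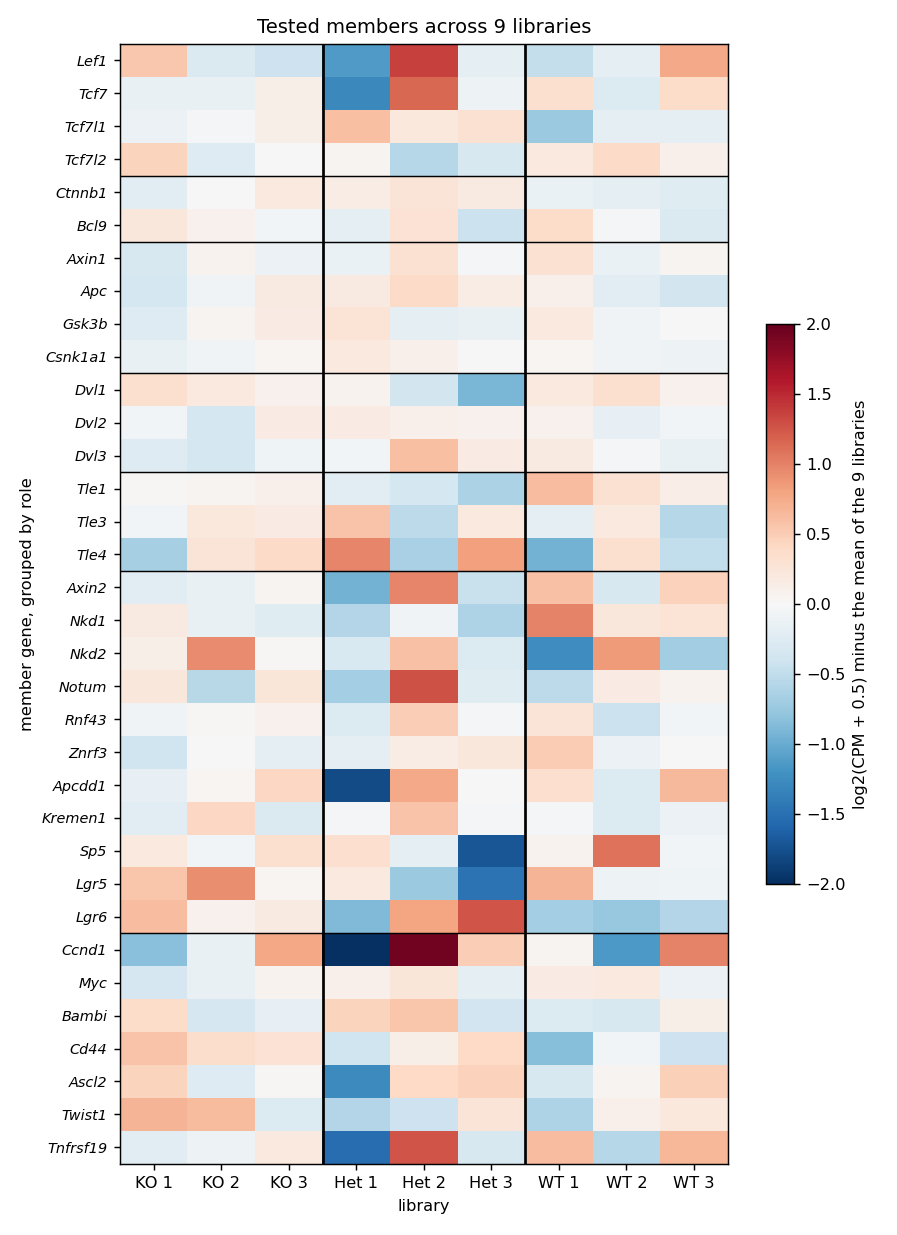
Level of the 34 tested members (rows, by role) in the 9 libraries (columns KO, Het, WT), as log2(CPM + 0.5) minus the mean of the 9 libraries, with the colour scale cut at 2 in either direction. Het 2 is red and Het 1 blue for Lef1, Tcf7, Axin2, Apcdd1, Ccnd1 and Tnfrsf19, while the destruction complex stays pale across all libraries.

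Lef1 was set beside each of the other 33 tested members over the 9 libraries (log2 CPM, exact permutation tests of pairings, two-sided, Benjamini-Hochberg adjusted over the 33). No relation passed an adjusted p under 0.05. The highest Pearson r was with Notum (r = 0.83, permutation p = 0.00617, adjusted p = 0.0942; Spearman rho = 0.63, p = 0.076, adjusted p = 0.566). Without Het 1 and Het 2, the libraries farthest from the median of Lef1, r with Notum was 0.49. Tcf7 was next (r = 0.80, permutation p = 0.0116, adjusted p = 0.0942; rho = 0.50, p = 0.178, adjusted p = 0.581), and its relation rested on those libraries, since r was 0.14 without them. Ascl2 was the third (r = 0.77, permutation p = 0.0119, adjusted p = 0.0942; rho = 0.87, p = 0.00451, adjusted p = 0.0744) and had the same r of 0.77 without Het 1 and Het 2, on 0 to 24 reads per library. The lowest r was with the co-repressor Tle3 (r = -0.86, permutation p = 0.00271, adjusted p = 0.0894; rho = -0.62, p = 0.0857, adjusted p = 0.566; r = -0.67 without Het 1 and Het 2). Of the 33 members, 7 (21.2%) had an r of at least 0.7 with Lef1, beside 6.81% of all tested genes. A negative r of that size was found for 2 members and for 7% of genes. The 7 were the 3 named above with Tnfrsf19, Axin2, Apcdd1 and Ccnd1. Without Het 1 and Het 2, r was 0.14 for Tnfrsf19, 0.08 for Axin2, 0.13 for Apcdd1 and 0.05 for Ccnd1. As for Tcf7, these relations rested on those libraries. A genotype holds too few libraries for a correlation within it, and the libraries share tissue make-up, so these are descriptions of these 9 libraries. The count that passed was 5 without WT 1 (Tcf7, Tle3, Tle4, Axin2 and Tnfrsf19), 3 without Het 2 (Apc, Csnk1a1 and Ascl2) and 1 without the 3 libraries low in Sbp (Gsk3b, at the smallest p that 6 libraries allow).

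The order of libraries seen in Ccnd1 and Tcf7 was close to that of the summed seminal vesicle markers, a sum carried by Svs2 and Svs5, in a relation examined after the values had been seen. Over the 9 libraries, 4 of the 34 members passed after adjustment over 34 relations with the log2 summed CPM of these markers (exact permutation tests). Ccnd1 had r = 0.93 (permutation p = 6.61e-05, adjusted p = 0.00225; rho = 0.93, p = 0.00075, adjusted p = 0.0255) and was the only member to pass in rank order too. Apcdd1 had r = 0.95 (permutation p = 0.000422, adjusted p = 0.00717; rho = 0.85, p = 0.00607, adjusted p = 0.103). Tcf7 had r = 0.90 (permutation p = 0.00101, adjusted p = 0.0114; rho = 0.82, p = 0.0108, adjusted p = 0.122) and Tnfrsf19 r = 0.89 (permutation p = 0.00155, adjusted p = 0.0132; rho = 0.77, p = 0.0214, adjusted p = 0.173). Without Het 1 and Het 2, the libraries farthest from the median of the marker sum, r was 0.86 for Ccnd1 (permutation p = 0.00913, unadjusted), 0.76 for Apcdd1 (p = 0.0437), 0.60 for Tcf7 (p = 0.156) and 0.59 for Tnfrsf19 (p = 0.162), so for the last 2 the relation rested on those libraries. Axin2 and Lef1 had r = 0.78 each (permutation p = 0.012 and 0.0142, adjusted p = 0.0653 for both; rho = 0.62 and 0.75) and 0.36 and 0.35 without Het 1 and Het 2. Leaving out Het 1 left 0 members past the threshold, and leaving out Het 2 or WT 3 left 2, Apcdd1 and Ccnd1. Leaving out KO 3 gave 6, among them Lef1 (r = 0.87, permutation adjusted p = 0.0352), and leaving out WT 1 gave 5, among them Axin2 (r = 0.86, permutation adjusted p = 0.0449). With the mean log2 CPM of the 7 markers, which weights them equally, in place of their sum, 0 of the 34 passed. The r was then 0.50 for Ccnd1, 0.70 for Apcdd1, 0.52 for Tcf7 and 0.52 for Tnfrsf19 (permutation p = 0.171, 0.0394, 0.155 and 0.15, adjusted p = 0.604, 0.456, 0.604 and 0.604). An r of at least 0.7 with these markers was found for 7 of the 34 members (20.6%) and for 11.2% of all tested genes. The part of seminal vesicle tissue in the members' levels was not tested.

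**Figure D5:**
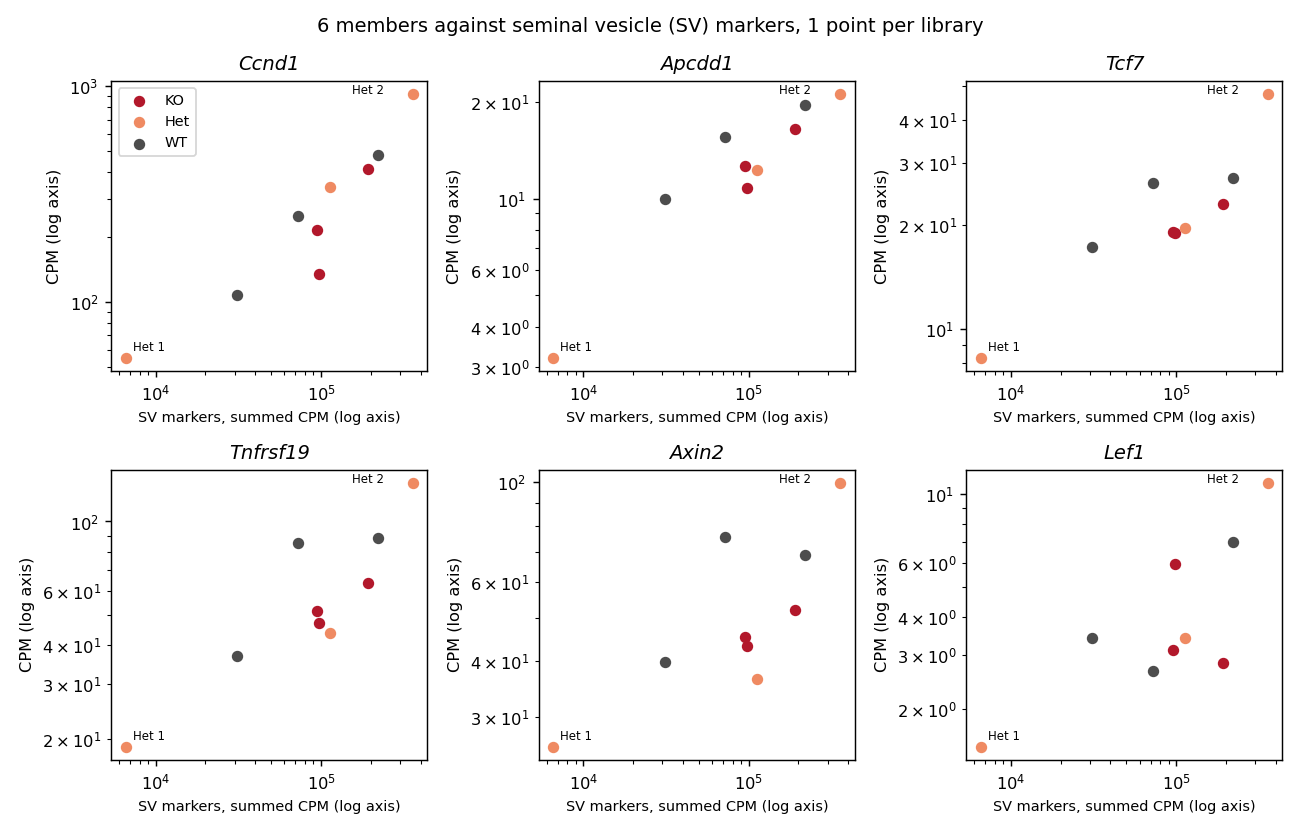
CPM (log axis) of Ccnd1, Apcdd1, Tcf7, Tnfrsf19, Axin2 and Lef1 against the summed CPM of 7 seminal vesicle markers (log axis; mostly Svs2 and Svs5), each point a library coloured by genotype, with Het 1 and Het 2 labelled. Het 1 lies at the low end and Het 2 at the high end of both axes in every panel; the KO and WT libraries between them follow the same slope most closely for Ccnd1.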

How the data were processed

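PolyA-enriched RNA of 9 prostate libraries was sequenced, per the labels' protocols. The authors deposited raw read counts per gene and, separately, FPKM per library; the build named in the submitters' processing notes is GRCm38 (mm10). No aligner, counter or strand setting is named in the sources used here. Genotypes came from library names. Replicate numbers follow accession order and pair nothing. No pair of libraries was near a duplicate (lowest chi-square per degree of freedom 40).

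Counts were tested in 1 fit of all 9 libraries (edgeR 4.0.16, R 4.3.3; TMM, filterByExpr, robust quasi-likelihood F test, genotype only) with Benjamini-Hochberg adjustment over all genes tested, called at an adjusted p under 0.05. A standard error is the size of the log2 fold change over the square root of F. Correlations used log2 CPM with a prior count of 2. DESeq2 1.42.0, limma 3.58.1 voom, other scalings and filters, and single libraries left out were alternatives. Members and lists were chosen with earlier results of these data known. Named with fold changes are the TCF/LEF factors, Ctnnb1, Axin2 and the 3 smallest p in each direction, with up to 3 other pathway genes a comparison. Intervals on counts of 0 cover counting error only, since reads are not independent molecules.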

Additional observations from a re-analysis of the deposited data

How the results depend on the processing

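Lef1 changed sign with a single library left out in all 3 comparisons, and Tcf7 and Axin2 in Het against WT and KO against Het. In KO against WT Tcf7 kept to -0.36 to -0.11 and Axin2 to -0.58 to -0.22. No other named member but Tcf7l2 reversed in any alternative. Leaving out the 3 libraries low in Sbp gave log2 fold changes of 0.21 for Lef1, 0.24 for Tcf7 and 0.23 for Axin2 in KO against WT, -0.47 for Lef1 and -0.31 for Tcf7 in Het against WT, and 0.69 for Lef1, 0.55 for Tcf7 and 0.59 for Axin2 in KO against Het. With single libraries left out Lef1 ran from -0.55 to 0.37 in KO against WT, from -0.84 to 0.78 in Het against WT and from -0.86 to 0.68 in KO against Het. Tcf7 ran from -0.78 to 0.50 in Het against WT and from -0.72 to 0.55 in KO against Het, and Axin2 from -0.99 to 0.15 and from -0.54 to 0.58 in these. Limma voom gave -0.16 for Tcf7 in Het against WT and 0.01 for Axin2 in KO against Het. The seminal vesicle score as a covariate, added after the data were seen, reversed Tcf7l2 in KO against WT (0.05) and Axin2 in Het against WT (0.04). It gave -0.96 for Lef1 and -0.94 for Tcf7 in KO against WT, 0.93 and 0.36 in Het against WT, and -1.89 and -1.30 in KO against Het, and none of these passed. Every KO library lay above every Het library on this score, so score and genotype cannot be told apart in KO against Het. The cause of these shifts was not tested.

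Counts of called genes moved most. DESeq2 called 15 genes in KO against WT, 206 in Het against WT (1 member, Tle1) and 179 in KO against Het. No low-count filter gave 2 in KO against Het. Leaving out the 3 libraries low in Sbp gave 1 in Het against WT and 1 in KO against Het. The covariate gave 229 in Het against WT (1 member, Tle1) and 59 in KO against Het. With single libraries left out the range was 0 to 1 in KO against WT, 0 to 258 in Het against WT (0 to 1 members) and 0 to 18 in KO against Het, each maximum without Het 1. Members correlated with Lef1 ran from 0 to 5, with 1 without the libraries low in Sbp, and those correlated with seminal vesicle markers from 0 to 6, with 2 when the libraries low in Sbp were left out and 0 for the markers' mean log2 CPM. The members' median in KO against Het was 0.29 without the libraries low in Sbp.

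No paired analysis was possible because the replicate numbers were given in accession order and pair no libraries. With 28 to 238 reads of Lef1 per library and 3 libraries a genotype, depth and spread both limit it.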
